A study of Mus musculus with 3 samples.

Results

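Macrophages find and swallow dying cells through a set of ligands and receptors, of which 8 genes were followed here: the bridging ligands Gas6, Pros1 and Mfge8, the receptor tyrosine kinases Tyro3, Axl and Mertk (the TAM family), and the receptors Timd4 and Stab1. The genes were chosen by name, with values from these same arrays already known, so what follows describes them and tests nothing. They were read by 12 of the 41174 probes of a mouse gene expression array, and all 8 had a probe well above background on 1 or more arrays, among 14562 genes with such a probe. In each comparison 7 of the 8 genes were measured on both arrays, and Tyro3 was not.

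The study asked how hexavalent chromium, given as potassium dichromate, acts on peritoneal macrophages in a short test of cell transformation. Total RNA was labelled with Cy3 and put on 1 array per group, in 3 groups. The mice were male Swiss albino animals of 8 weeks, in groups of 10. All 3 groups had 125 µg of lipopolysaccharide into the peritoneum on day 0, to draw in macrophages, and 100 ng of the phorbol ester TPA on day 4. The first group had TPA only and was the control. The other groups had 35 nmol or 70 nmol of chromate in the TPA dose; the sample labels state these amounts as Cr(VI) and the treatment text as dichromate. Peritoneal lavage collected the cells 4 days after chromate, red cells were removed, and no sorting step is given in the labels. The control is thus not an untreated macrophage, and each difference is that of chromate on top of lipopolysaccharide and TPA. The labels do not settle whether an array holds RNA of 1 mouse or of a pool. Treatments with lipoic acid, which the protocol also names, are not analysed here.

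Dying cells turn the lipid phosphatidylserine to their outer face, where phagocytes recognise it. Gas6 and Pros1 bind that lipid with 1 end, which vitamin K-dependent carboxylation makes competent, and a TAM receptor with the other; Gas6 binds all members of the TAM family, whereas Pros1 acts mainly through Tyro3 and Mertk. Mfge8 bridges the lipid to integrins, while Timd4 and Stab1 bind it directly. In the mouse peritoneum Timd4 marks long-lived resident macrophages, and TAM signalling also dampens responses to Toll-like receptors and interferon.

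The promoters of Gas6 and Stab1 are shown because these were the genes of the set at least 2-fold higher with 70 nmol. Each line holds the 250 bases before the transcription start in RefSeq's GRCm38.p6 assembly, that of a reference strain and not of these mice, read 5′ to 3′ on the gene's strand. Gas6 lies at chr8:13494536-13494785 and Stab1 at chr14:31168642-31168891, both on the minus strand. Capitals mark the GC box (GGGCGG, or CCGCCC when read from the other strand) in Gas6 and the MAF half-site (TGCTGA) in Stab1.
Gas6: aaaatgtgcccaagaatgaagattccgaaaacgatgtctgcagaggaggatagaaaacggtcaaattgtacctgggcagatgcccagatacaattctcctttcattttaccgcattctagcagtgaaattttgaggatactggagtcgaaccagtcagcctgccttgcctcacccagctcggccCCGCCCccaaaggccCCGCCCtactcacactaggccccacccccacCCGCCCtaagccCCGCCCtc
Stab1: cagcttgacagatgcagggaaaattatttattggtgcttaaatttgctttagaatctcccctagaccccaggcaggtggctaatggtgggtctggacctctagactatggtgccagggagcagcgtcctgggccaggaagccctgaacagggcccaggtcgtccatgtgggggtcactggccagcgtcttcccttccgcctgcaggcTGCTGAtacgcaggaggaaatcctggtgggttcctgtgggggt

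The Gas6 window was 54.8% G and C and held 4 GC boxes, which began 66, 51, 20 and 8 bases before the start. The Stab1 window was 57.2% G and C, held no GC box, and had 1 MAF half-site 43 bases before the start. These letters are common: of 32851 mouse promoter windows of the same length, with a median of 52.4% G and C, 32.7% held a GC box and 16.1% a MAF half-site on either strand. Each window was also searched on both strands for the GATA motif GATAA (22.6% of all windows), the nuclear receptor half-site AGGTCA (14.0%), the interferon-stimulated response element (2.98%), the STAT motif TTCNNNGAA (7.02%) and TATAA (22.8%), none of which was in the Gas6 or Stab1 window. The other members differed among themselves in the same letters. Timd4 was the other member without a GC box, and its window held 2 MAF half-sites, at 150 and 44 bases, with 1 nuclear receptor half-site at 116 and 1 TATAA at 28. Pros1 had 5 GC boxes with 1 GATA motif at 168 and 1 STAT motif at 92, Mfge8 had 4 with 1 GATA motif at 241, Mertk and Tyro3 had 3 each and Axl had 1. A match is a string of letters and no evidence of a bound factor.

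Levels are log2 processed signal minus the array's own 75th percentile, so 0 is a probe at that percentile, and levels of different probes are not compared. The scanner software flags each spot that is well above background, and 49.1%, 45.9% and 45.1% of probes had that flag on the TPA-only, 35 nmol and 70 nmol arrays. The dimmest flagged probes had levels of -3.65, -3.40 and -3.26. With 1 array per group there is no replicate and no test of any difference. The spread that could be given is technical. The scanner software gives each spot an error estimate, called the scanner error here, which is not a measured spread. It came to 0.20 to 0.21 for a log2 difference on the brightest probe of each of the 7 measured genes. Repeated spots of a probe had a median SD of 0.043, 0.043 and 0.034 with TPA only, 35 nmol and 70 nmol. In the 70 nmol comparison, 2 probes of the same gene differed by a median of 0.16 over 3089 genes. The 95th percentile of that gap was 0.67. The array, its position on the slide and the treatment cannot be told apart. In bulk RNA, fewer cells of a type and less RNA per cell also cannot be told apart. All 7 macrophage markers were well above background on all 3 arrays, which fits the label, and their summed level on a linear scale was 678.2, 755.0 and 686.6 times the 75th percentile with TPA only, 35 nmol and 70 nmol. Without Lyz2, whose probe was saturated, the sums were 444.5, 447.6 and 390.0. Such a sum is weighted towards its brightest probes. Adgre1, the brightest of those left, had levels of 7.67, 7.71 and 7.16 with TPA only, 35 nmol and 70 nmol. The median log2 difference of the list with 70 nmol was -0.03.

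Gas6, the ligand shared by the TAM receptors, had the largest difference of the 7 measured genes. Its 1 probe, at chr8:13465421-13465480 on the minus strand of mm8, had levels of -0.01 with TPA only, 0.41 with 35 nmol and 1.92 with 70 nmol. The 70 nmol array stood apart from the other two. Against TPA only, Gas6 was 3.81-fold higher with 70 nmol, a log2 difference of 1.93 with a scanner error of 0.21, which was rank 22 from the top of 12541 measured genes. With 35 nmol the log2 difference was 0.42 (1.34-fold), at rank 676 of 12730. Between the doses, Gas6 was 2.84-fold higher with 70 nmol than with 35 nmol, at rank 27 from the top of 12387 genes. For scale, 1693 genes within 0.5 of the Gas6 level on the TPA-only array had a median difference of -0.006 and an SD of 0.37 with 70 nmol. Before any scaling, the Gas6 spot read 267.0, 274.0 and 809.9 units with TPA only, 35 nmol and 70 nmol. The 35 nmol log2 difference varied with the scale: it was 0.03 with spike-in scaling and 0.44 with the median of detected probes as scale. Which scale is right was not tested.

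Pros1, the other TAM ligand and a plasma anticoagulant, was lower with 70 nmol on both of its probes, by less than 2-fold. The brighter probe, at chr16:62871104-62871163 on the plus strand of mm8, had levels of 4.77, 4.61 and 4.16 with TPA only, 35 nmol and 70 nmol. The other, at chr16:62870427-62870486, had 2.80, 2.75 and 2.31. Both probes placed the 70 nmol array lowest and the other arrays close together. The log2 difference with 70 nmol was -0.60 on the brighter probe (1.52-fold lower) and -0.49 on the other, and the 35 nmol differences were -0.16 and -0.06. The 2 TAM ligands therefore differed from TPA only in opposite directions on the 70 nmol array.

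Mfge8, the bridge to αv integrins, also had its lowest level with 70 nmol. Its probe, at chr7:79007316-79007375 on the minus strand of mm8, had 4.83 with TPA only, 4.88 with 35 nmol and 4.27 with 70 nmol. The 35 nmol and TPA-only arrays were within 0.05 of each other. The log2 difference from TPA only was -0.55 with 70 nmol (1.47-fold lower), and it was -0.60 between 70 nmol and 35 nmol (1.52-fold lower), each less than 2-fold.

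**Figure D1:**
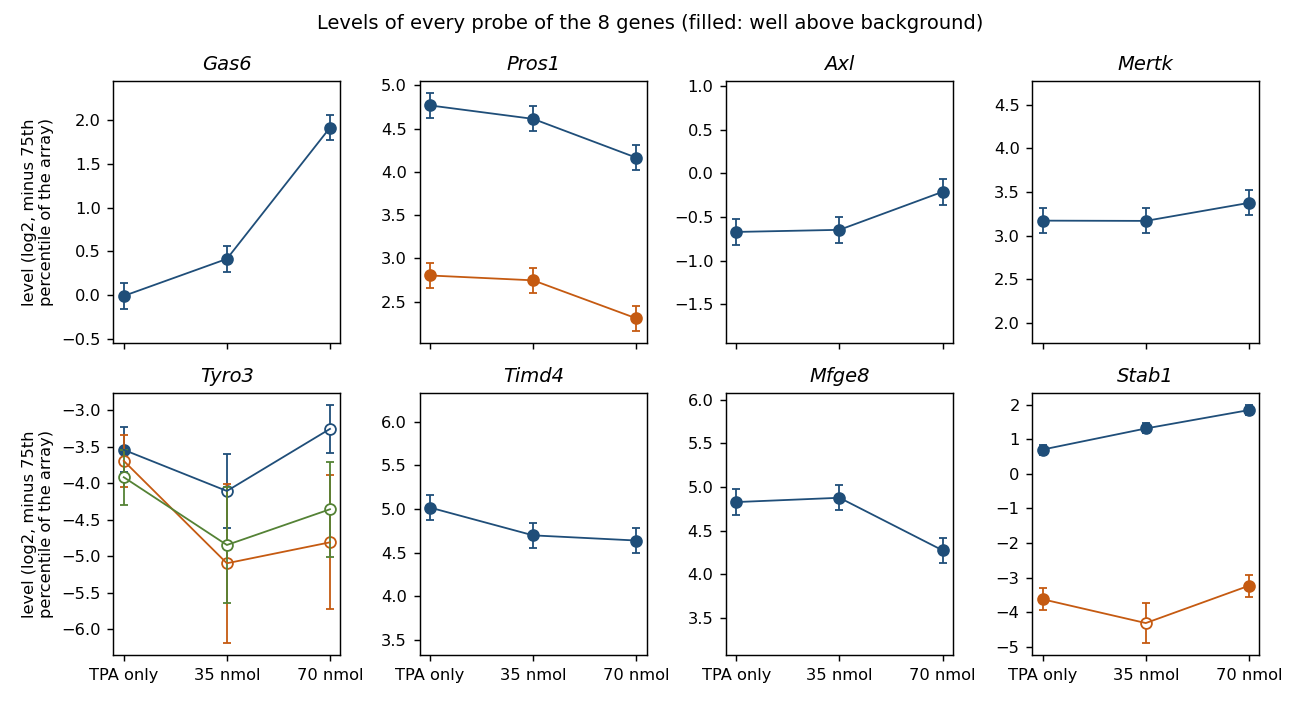
Level of every probe of the 8 genes on each array, as log2 processed signal minus the array's 75th percentile, with TPA only, 35 nmol and 70 nmol along each horizontal axis. Each line is 1 probe and each point 1 array, and filled points are well above background. Gas6 has its high point with 70 nmol (1.92, against -0.01 with TPA only), both Pros1 probes have their low point there, and all but 1 of the Tyro3 points are open.

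Neither of the TAM receptors that could be compared, Axl and Mertk, differed by 2-fold. Axl, the TAM receptor for which Gas6 is the only ligand of the pair, had levels of -0.67 with TPA only, -0.65 with 35 nmol and -0.21 with 70 nmol on its probe at chr7:25466694-25466753, minus strand. Its log2 difference was 0.02 with 35 nmol and 0.46 with 70 nmol (1.38-fold, rank 1082 of 12541), each with a scanner error of about 0.21. Axl thus had its high point on the same array as Gas6, at a much smaller size.

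Mertk, the TAM receptor most used by macrophages for taking up dying cells, differed little between the arrays. Its probe at chr2:128493572-128493631, plus strand, had 3.17, 3.17 and 3.37 with TPA only, 35 nmol and 70 nmol. The differences, -0.003 with 35 nmol and 0.20 with 70 nmol, were within the scanner error. When the arrays were scaled on spike-in RNA the 70 nmol difference of Mertk was -0.13, against a median of -0.30 over all genes.

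Tyro3, the third TAM receptor, was at the edge of detection. Of its 3 probes, all on the plus strand of chromosome 2, only the one at chr2:119508979-119509038 was well above background, and only with TPA only, where its level was -3.54. On the 35 nmol and 70 nmol arrays that probe read -4.11 and -3.25. The probe at chr2:119508741-119508800 read -3.69, -5.10 and -4.81, and the one at chr2:119493084-119493143 read -3.92, -4.85 and -4.36. Values this close to background have no order, and no fold is given for Tyro3.

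Stab1, a scavenger receptor that also binds phosphatidylserine, was the other gene at least 2-fold higher with 70 nmol. Its brighter probe, at chr14:29968111-29968170 on the minus strand of mm8, had 0.70, 1.31 and 1.84 with TPA only, 35 nmol and 70 nmol, and so differed between all 3 arrays in dose order. The log2 difference was 0.61 with 35 nmol (1.53-fold, rank 355 of 12730) and 1.14 with 70 nmol (2.20-fold, rank 155 of 12541), with a scanner error of 0.20. Before any scaling, this spot read 436.9, 509.5 and 766.8 units with TPA only, 35 nmol and 70 nmol. With spike-in scaling the 35 nmol difference was 0.22, close to the scanner error. A dimmer probe, listed at chr14:29988514-29988657 and thus upstream in the gene, read -3.62 with TPA only, -4.31 and not well above background with 35 nmol, and -3.23 with 70 nmol. That probe gave 0.39 with 70 nmol with a scanner error of 0.45. The 2-fold call for Stab1 rests on the brighter probe and was lost in 3 other processings: the log2 difference was 0.98 with another background correction (normexp), 0.81 with spike-in scaling and 0.76 as the mean of its probes.

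Timd4, the phosphatidylserine receptor of resident macrophages, was slightly lower on both chromate arrays. Its probe at chr11:46687094-46687153, plus strand, had 5.02 with TPA only, 4.70 with 35 nmol and 4.64 with 70 nmol. The chromate arrays were alike, and the log2 differences from TPA only were -0.32 and -0.38, above the scanner error and well under 2-fold.

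Of the 7 genes measured with 70 nmol, 2 were at least 2-fold higher and 0 lower, where 1.63% of all 12541 measured genes were higher and 1.08% lower (2.71% in either direction). Their median difference was 0.20, against 0.04 over all genes, and they ran between -0.60 (Pros1) and 1.93 (Gas6), 4 above 0 and 3 below. With 35 nmol, 0 of 7 were 2-fold higher or lower, where 1.12% of 12730 genes were higher and 0.299% lower (1.42% in either direction), and the median was 0.02 with a range of -0.32 to 0.61. Between 70 nmol and 35 nmol, 1 of 7 (Gas6) was higher and 0 lower, where 0.92% of 12387 genes were higher and 0.718% lower (1.64% in either direction). Since values from these arrays were known when the genes were chosen, nothing is read from these shares. The comparisons with TPA only share 1 control array. The split of calls over all genes moved with the scale: 204 genes were higher and 136 lower with 70 nmol as reported, against 95 and 359 with spike-in scaling, and 143 were higher and 38 lower with 35 nmol, against 75 and 223.

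**Figure D2:**
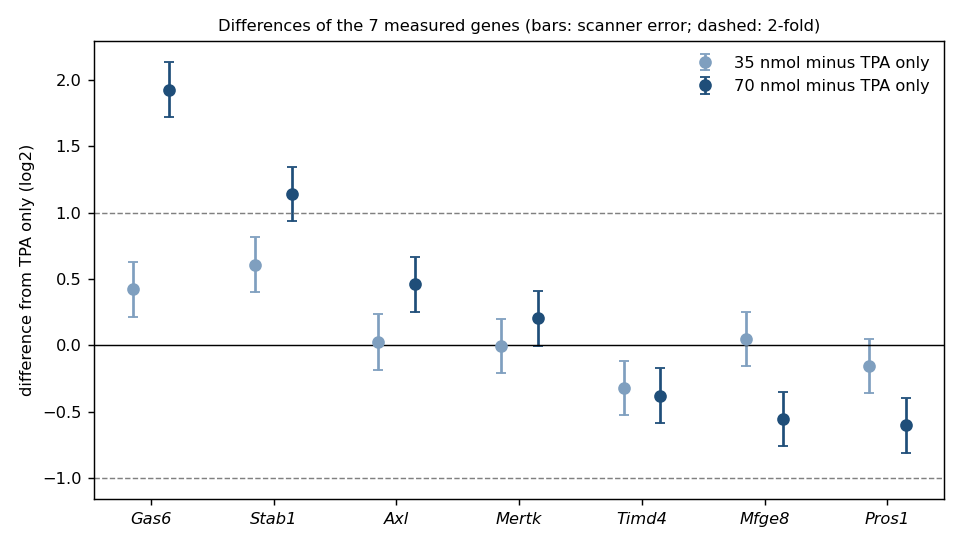
Difference of each of the 7 measured genes from TPA only in log2 units, with 35 nmol and 70 nmol side by side. Points are the brightest probe of each gene, bars are the scanner's error and not replicate error, and dashed lines mark 2-fold. Gas6 at 1.93 and Stab1 at 1.14 with 70 nmol are beyond the upper line, and no gene is beyond the lower one.

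The genes nearest to Gas6 in their pair of differences from TPA only were sought among 11012 genes measured on all 3 arrays. They were Igfbp6, a binding protein of insulin-like growth factors (0.41 with 35 nmol and 1.84 with 70 nmol), the RNA-binding protein gene Bicc1 (0.52 and 1.89), Loxl1, an enzyme that cross-links elastin (0.37 and 1.84), and the receptor tyrosine kinase gene Ephb3 (0.38 and 2.03). Their distances to Gas6 were between 0.09 and 0.11 log2 units. Nearest to Stab1 were the kinase gene Mok (0.57 and 1.18), Kctd17 (0.55 and 1.11), the transcription factor gene Batf2 (0.64 and 1.07) and the small GTPase gene Rnd1 (0.53 and 1.16), at distances between 0.05 and 0.08. On the TPA-only array several of these genes were dim: Igfbp6, Loxl1 and Ephb3 had levels of -2.89, -3.03 and -3.56, and Mok had -3.33. Likeness over 3 arrays is a description only.

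The wider machinery was read from 7 lists of 92 other genes. Among other uptake receptors, 14 of 17 were measured with 70 nmol, of which 2 were 2-fold higher, none was 2-fold lower and 11 lay above the median of all genes. The list's median was 0.14 with 35 nmol and 0.39 with 70 nmol. Havcr2, an inhibitory receptor of the Tim family that also binds phosphatidylserine, had levels of -2.0, -1.48 and -0.66 with TPA only, 35 nmol and 70 nmol (1.35 with 70 nmol). Itgb5, the β5 chain that pairs with αv integrin to bind Mfge8, had 2.12, 2.52 and 3.15 (1.03 with 70 nmol). Stab2, the relative of Stab1, was dim, at -3.32, -2.23 and -3.00, and was the 1 receptor at least 2-fold higher with 35 nmol (1.09). The calls of Havcr2, Itgb5 and Stab2 were lost with normexp (0.84, 0.96 and 0.57), and those of Itgb5 and Stab2 also with spike-in scaling (0.70 each). Itgb5 and Mfge8 thus lay on opposite sides of TPA only on the 70 nmol array. Havcr1 and Timd2 were not well above background on any array.

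Of 14 other bridging or eat-me proteins, 12 were measured with 70 nmol, 1 was higher and 1 lower, and 3 lay above the median of all genes. The list's median was -0.04 with 35 nmol and -0.08 with 70 nmol. Anxa5, which coats exposed phosphatidylserine, had 3.40, 3.80 and 4.66 with TPA only, 35 nmol and 70 nmol, a difference of 1.26 with 70 nmol, or 0.92 with spike-in scaling. Thbs1, the thrombospondin that links dying cells to Cd36, had 2.36, 2.15 and 1.07, a difference of -1.29 with 70 nmol, and its other probes gave -1.23 and -1.11. Apoh, a plasma lipid-binding protein made in liver, had -2.55, -0.44 and -3.99, the last not well above background, and a difference of 2.11 with 35 nmol.

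Downstream of the receptors, none of the 18 measured engulfment and digestion genes differed by 2-fold at either dose. Their median was 0.05 with 35 nmol and 0.13 with 70 nmol, and their 70 nmol values ran between -0.20 and 0.39. Examples are Abca1, the cholesterol exporter (-0.16 with 35 nmol and 0.39 with 70 nmol), and Rab7, a GTPase of late phagosomes (0.12 and 0.37). Elmo2, a partner of the Rac activator Dock1, gave -0.42 with 35 nmol and 0.17 with 70 nmol, where its other probe gave -0.15. Gulp1, an adaptor of uptake receptors, was not well above background on any array.

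Among 17 find-me and don't-eat-me genes, all measured, none differed by 2-fold with 35 nmol or 70 nmol, 11 lay above the median of all genes with 70 nmol, and the medians were 0.10 with 35 nmol and 0.25 with 70 nmol. Cx3cl1, a chemokine released by dying cells, was just under 2-fold higher with 35 nmol (1.00) and with 70 nmol (0.94). P2ry6, a receptor for nucleotides that dying cells release, had 0.15 and 0.92 with 35 nmol and 70 nmol, and Sphk1, which makes the find-me lipid sphingosine 1-phosphate, had 0.35 and 0.89.

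The 6 genes that carboxylate or shed TAM ligands and receptors held no 2-fold difference. Ggcx, the vitamin K-dependent carboxylase that completes Gas6 and Pros1, had -0.18 with 35 nmol and -0.70 with 70 nmol. Vkorc1, which recycles vitamin K for that enzyme, had 0.01 and -0.54, and Furin, a protease that trims proproteins, had 0.36 and 0.45. The 6 measured genes of the brakes that TAM receptors act through or share, out of 7, also held no 2-fold difference: Socs1, an inhibitor of cytokine signalling, had 0.85 with 35 nmol and 0.74 with 70 nmol, and the ubiquitin ligase gene Cblb had -0.43 and -0.06. Twist1 was not well above background on any array.

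Among regulators of uptake genes, 10 of 12 were measured with 70 nmol and 4 differed by 2-fold or more, 3 of them upwards. Pparg and Nr1h3, lipid-sensing nuclear receptors that raise uptake receptors in mouse macrophages, gave 0.25 and 0.18 with 35 nmol and 1.30 and 1.03 with 70 nmol. Maf, a transcription factor of mature macrophages, gave 0.27 with 35 nmol and 1.23 with 70 nmol, and its other probes gave between 0.81 and 1.1 with 70 nmol. Gata6, the factor of resident peritoneal macrophages, gave -0.28 with 35 nmol and -1.08 with 70 nmol, while its other probes disagreed with each other at -1.02 and 0.56. With spike-in scaling the 70 nmol differences of Pparg, Nr1h3 and Maf were 0.97, 0.70 and 0.90, each under 2-fold, and that of Gata6 was -1.42. On the scale used here, the mean over the Gata6 probes was -0.51 with 70 nmol. With 35 nmol no regulator differed by 2-fold. Ppard was not well above background on any array.

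**Figure D3:**
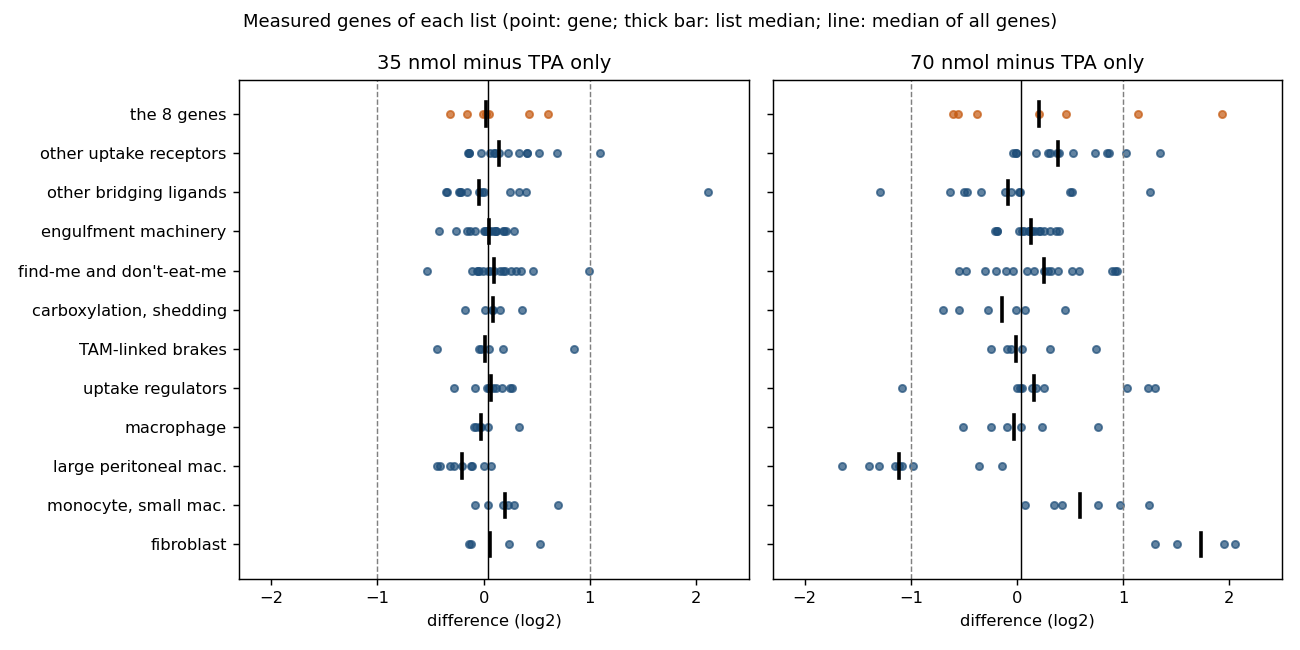
Log2 differences from TPA only of the measured genes of each list, 35 nmol in one panel and 70 nmol in the other. Points are genes, thick bars are list medians and the vertical line is the median of all measured genes. With 70 nmol the median of the uptake receptors is 0.39, that of the bridging proteins is -0.08 and that of the fibroblast markers is 1.73.

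Markers of other cells moved on the same arrays as the uptake genes, and their part in the values above was not tested. Fibroblasts also make Gas6. Of 7 fibroblast markers, 4, 4 and 6 were well above background with TPA only, 35 nmol and 70 nmol, and their summed linear level was 9.59, 10.9 and 32.7 times the 75th percentile. All 4 measured markers were at least 2-fold higher with 70 nmol than with TPA only, and again than with 35 nmol. Dcn gave 2.06, Col3a1 gave 1.95 and Col1a2 gave 1.51 against TPA only, the fourth, Col1a1, gave 1.30 (0.96 with spike-in scaling), and the list's median was 0.06 with 35 nmol and 1.73 with 70 nmol. The defining markers Lum and Pdgfra were well above background with 70 nmol alone, and Fbn1 on no array. The array on which Gas6 was high is thus also the one on which collagen and decorin transcripts were high.

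Mesothelial markers, of the cells that line the peritoneum, summed to 0.479, 0.520 and 0.913 with TPA only, 35 nmol and 70 nmol. Among them Krt19 (0.98) and Msln (0.68) were measured with 70 nmol, Wt1 was well above background with 70 nmol alone, and Upk3b and Lrrn4 on no array. Endothelial cells express Stab1 and Axl. Of 5 endothelial markers only Vwf was well above background (0.16 with 70 nmol), and Cdh5, Kdr, Tek and Emcn were not on any array.

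Markers of macrophage subsets also differed between the arrays. Markers of large, resident peritoneal macrophages, to which Timd4 belongs by its usual expression, had a summed level of 596.5, 638.7 and 477.0 with TPA only, 35 nmol and 70 nmol, or of 363.7, 339.6 and 202.0 without Icam2, whose probe was saturated. All 10 were well above background on every array; of the 9 measured with 70 nmol, 6 were at least 2-fold lower (median -1.11), among them Alox15 at -1.65, Ltbp1 at -1.39 and Garnl3 at -1.30, and the median was -0.20 with 35 nmol. The other Ltbp1 probe gave -0.54 with 70 nmol, and the mean of the Ltbp1 probes was -0.97, under 2-fold. Another of the 6 was under 2-fold with normexp (-0.94). This list shares Gata6 with the regulators. Markers of monocytes and small peritoneal macrophages summed to 128.7, 162.0 and 190.4. Of the 6 measured of 8 such markers, F13a1 (1.24, or 0.90 with spike-in scaling) was at least 2-fold higher with 70 nmol, Clec10a gave 0.97 and Ccr2 gave 0.76, and the list's median was 0.59. The general macrophage markers had a median of -0.03 with 70 nmol over the 6 measured, with Adgre1 at -0.51, Fcgr1 at 0.76 and Cd14 at -0.24. Timd4, at -0.38, was thus lower by less than the median of the resident list.

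Hepatocytes make Pros1 and Apoh. Of 7 hepatocyte markers, 6, 6 and 1 were well above background with TPA only, 35 nmol and 70 nmol, with a summed level of 16.0, 50.6 and 0.289. All 6 measured with 35 nmol were at least 2-fold higher than with TPA only (median 1.62). Pros1 had its lowest level on the 70 nmol array, where those markers were lowest, and on the 35 nmol array, where they were highest, Pros1 gave -0.16. Among blood cells, the summed levels of mast cell markers were 24.4, 13.5 and 7.54 with TPA only, 35 nmol and 70 nmol, those of erythroid markers 67.0, 11.6 and 35.3, and those of B cell markers 260.6, 251.9 and 204.0. Neutrophil markers summed to 7.23, 3.63 and 12.3, mostly from S100a9, but did not move together with 70 nmol: S100a9 (1.02) and Mpo (1.07) were at least 2-fold higher, and Cxcr2 (-1.39) and Lcn2 (-1.29) at least 2-fold lower. With normexp each of these was under 2-fold, with the same sign: 0.87, 0.59, -0.72 and -0.70 in that order. The sums of dendritic cell markers were 1.33, 1.19 and 1.40, from the 2 of 5 that were well above background on any array. Those of eosinophil markers were 1.65, 2.36 and 1.82, likewise from 2 of 4. Pf4, the only platelet marker of 4 well above background on any array, had 74.3, 83.6 and 88.7. T and NK cell markers summed to 8.64, 9.03 and 10.1.

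**Figure D4:**
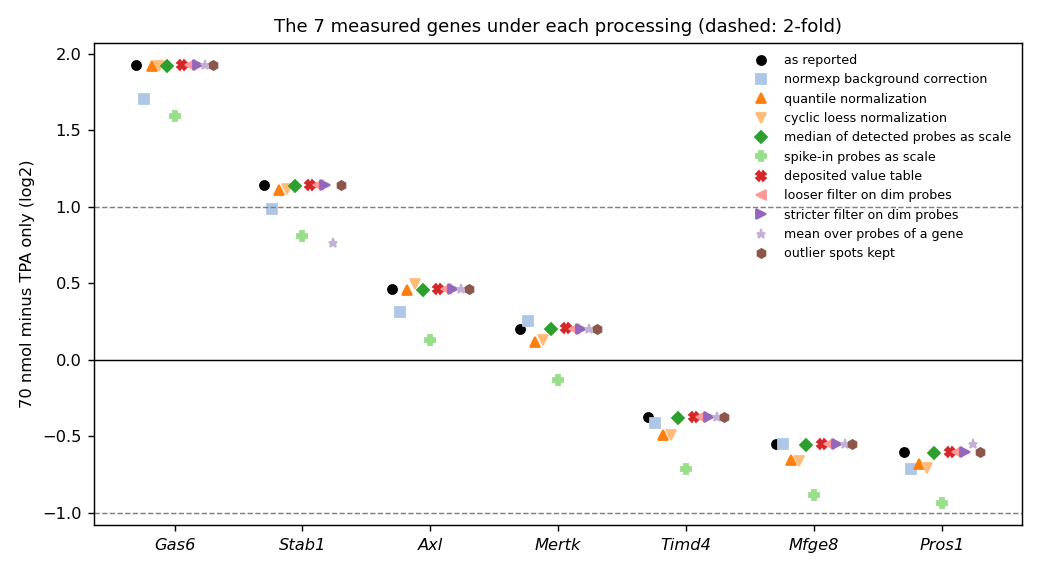
Log2 difference with 70 nmol from TPA only of the 7 measured genes, as reported and under each other processing. Points are settings and dashed lines mark 2-fold. Gas6 is beyond 2-fold under each of them, between 1.59 and 1.93, while Stab1 is under 2-fold with normexp (0.98), spike-in scaling (0.81) and the mean of probes (0.76).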

How the data were processed

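Total RNA of 3 groups was hybridised to 1 array each (1-colour, Cy3). Per the file headers, Agilent Feature Extraction 10.5.1.1 made each spot's processed signal, a background-subtracted intensity, with probe positions on mm8. The deposited value table holds log2 values, which equalled log2 processed signal minus a constant per array (8.00, 7.61 and 7.67 with TPA only, 35 nmol and 70 nmol) within 0.01 for 99.8%, 99.8% and 99.9% of probes; its column medians were -3.60, -3.74 and -3.78, genes were not centred, and how the authors chose the constants is not given in the sources used here.

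From 43379 non-control spots, outlier spots were left out, spots of a probe averaged, and log2 processed signal set against each array's 75th percentile. A gene is its brightest probe; it counts as measured in a comparison if well above background and not saturated on both arrays. A fold of 2 was called, with no test. Names came from RefSeq GRCm38.p6 by accession for 24375 probes, by symbol for 6301 and by synonym for 2426, and 8072 kept the file's name.

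The 8 genes and all lists were chosen with earlier results of these data known. Named beside the 8 genes are, per pathway list, up to 3 genes with the largest difference and all at 2-fold or more; per marker list, up to 3; and the 4 genes nearest to Gas6 and Stab1. The values of 1 gene that this rule names are not reported here. Col1a1 and Mpo were named after their values were seen. Exon or UTR annotation of probes was not used here. There were 12 alternatives to the processing. Python 3.11.15, numpy 2.4.6, pandas 2.3.3, R 4.3.3 and limma 3.58.1 were used.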

Additional observations from a re-analysis of the deposited data

Results flagged for a closer look

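Alb, the liver's albumin, differed from TPA only by 1.56 log2 with 35 nmol and by -6.09 with 70 nmol, at least 2-fold in opposite directions at the doses. S100a9, a neutrophil calcium-binding protein, differed by -1.24 with 35 nmol and by 1.02 with 70 nmol; the 70 nmol value was under 2-fold with normexp, quantile and cyclic loess normalization and spike-in scaling, between 0.68 and 0.97. Other markers of the same list, Cxcr2 (-1.39) and Lcn2 (-1.29), were at least 2-fold lower with 70 nmol as reported. With normexp they were under 2-fold (-0.72 and -0.70), and under the stricter filter on dim probes they were not measured. Alb and S100a9 belong to marker lists and are not among the 8 uptake genes. The difference between doses was not tested, since each dose has 1 array.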

How the results depend on the processing

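Over 10 other processings of the 7 measured genes in 3 comparisons, 194 of 210 differences moved by less than the scanner error, 16 moved by more and 0 turned a 2-fold difference round. Of the 16, 14 came from spike-in scaling, which moved the median of all genes to -0.35 with 35 nmol and -0.30 with 70 nmol against TPA only. Under it the small differences of Axl (-0.37) and Mfge8 (-0.34) with 35 nmol, and of Mertk (-0.13) with 70 nmol, were below 0, while Gas6 was 0.03 with 35 nmol and 1.59 with 70 nmol. It also put below 0 list medians that were positive as reported, given here only for lists with 4 or more measured genes. With 35 nmol these were uptake receptors (-0.25), engulfment (-0.34), find-me (-0.29), carboxylation and shedding (-0.30), brakes (-0.38), regulators (-0.32), monocyte (-0.19) and fibroblast markers (-0.33). With 70 nmol they were engulfment (-0.20), find-me (-0.08), regulators (-0.17) and T and NK cell markers (-0.28). Of the pathway genes at 2-fold or more, Itgb5, Anxa5, Nr1h3, Pparg, Maf and Stab2 lost the call with spike-in scaling. Normexp ended the calls of Havcr2 (0.84), Itgb5 (0.96), Nr1h3 (0.92), Pparg (0.90) and Stab2 (0.57), and quantile and cyclic loess normalization those of Itgb5 (0.96 and 0.97) and Nr1h3 (0.97 and 1.00, just under). The number of genes at least 2-fold different with 70 nmol, 2 as reported, was 1 with normexp, 1 with spike-in scaling, 1 with the mean of probes and 1 at a threshold of 3-fold, each time Gas6. At a threshold of 1.5-fold it was 3, of which 2 were higher and 1, Pros1 (1.52-fold), was lower. With 35 nmol it was 1 at 1.5-fold in place of 0. Between 70 nmol and 35 nmol, 1 as reported, it was 2 at 1.5-fold and 0 at 3-fold.

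Over all genes, 340, 181 and 203 were called with 70 nmol, with 35 nmol and between the doses. Normexp called 128, 65 and 59, the looser filter on dim probes 1203, 931 and 853, the stricter 174, 74 and 85, and spike-in scaling 454, 298 and 206; at 1.5-fold there were 1176, 622 and 807, and at 3-fold 71, 63 and 40. Precision is limited by 1 array per group, and signal over background limits Tyro3, the dimmer Stab1 probe, Stab2 and other dim genes named above. Among these are Cx3cl1 and Sphk1, at -3.28 and -2.97 with TPA only, and Ggcx, at -3.18 with 70 nmol. Under the stricter filter on dim probes, Havcr2 was not measured with 70 nmol, nor Apoh with 35 nmol. No paired analysis was possible because each group has 1 array and no replicate numbers.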

Other observations

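Some further uptake genes are given as values only, chosen after their values were seen. Trem2, a lipid receptor of phagocytes, had levels of 4.73, 5.06 and 5.58 with TPA only, 35 nmol and 70 nmol, and differed from TPA only by 0.85 with 70 nmol on 1 probe and 0.82 on the other. Lrp1, a scavenger receptor that takes part in uptake of dying cells, differed by 0.53 with 70 nmol, with 0.68 on its other probe, and Cd300lf, a receptor for phosphatidylserine and ceramide, by 0.86, with 0.59 on its other probe. Each of these was under 2-fold.

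The chains of complement C1q, which coat dying cells and debris, stayed close to TPA only. With 35 nmol, C1qa, C1qb and C1qc differed by -0.22, -0.36 and -0.23, and with 70 nmol by -0.11, 0.02 and -0.06. Sirpa, the receptor for the don't-eat-me signal Cd47, differed by 0.52 with 70 nmol on its brightest probe and by 0.13 to 0.29 on its others.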
